A study of Sus scrofa with 30 samples.

Results

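The 6 genes described here, ACTN1, EZR, KRT8, KRT18, CDH1 and TJP1, encode cytoskeletal and cell-junction proteins of epithelia. They are named members of a list, among 19484 protein-coding genes on pig chromosomes 1 to 18 and X, and they were picked because of how far H3K4me3 peaks reached around them in blastocysts. The blastocyst levels and the rise from the oocyte to the blastocyst are therefore given as a description, with no test. KRT8 and KRT18 lie 37408 bp apart on chromosome 5, so the 6 genes occupy 5 separate places in the genome.

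ULI-NChIP-seq, native chromatin immunoprecipitation with sequencing made for very few cells, gave maps of 2 histone H3 marks, H3K4me3 (trimethylated lysine 4) and H3K27me3 (trimethylated lysine 27). H3K4me3 was profiled in germinal vesicle (GV) oocytes, metaphase II (MII) oocytes and embryos fertilised in vitro at the 1-cell, 2-cell, 4-cell, 8-cell, morula and blastocyst stages. H3K27me3 was profiled in MII oocytes and in 2-cell, 4-cell, 8-cell, morula and blastocyst embryos. In the siKDM5BC group, zygotes were injected with siRNA, short RNA that depletes its target, for KDM5B and KDM5C, enzymes that remove H3K4 methylation, and H3K4me3 was profiled when they were 4-cell embryos. No control siRNA was labelled, so the 4-cell libraries without siRNA served as the control, and the peak lists cannot show how far the 2 targets were depleted. Each of the 15 groups had 2 libraries. Nothing in the labels says that the libraries of a group were collected separately, and p-values then capture only their spread, which may be technical. No source used here gave strains, ages or the number of oocytes or embryos in a library. A blastocyst library pools all cell types of the embryo, in which a mark found in more cells and a mark stronger in each cell cannot be told apart.

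In the blastocyst an outer epithelium, the trophectoderm, surrounds the inner cell mass and pumps fluid into a cavity, which needs sealed junctions and a polarised cell cortex. ACTN1 is alpha-actinin, a cross-linker of actin filaments, and EZR is ezrin, which ties actin to the apical membrane. KRT8 and KRT18 pair into the keratin filaments of simple epithelia, CDH1 (E-cadherin) is the adhesion molecule of adherens junctions that drives compaction of the morula, and TJP1 (ZO-1) is a scaffold of tight junctions. H3K4me3 usually marks promoters of active or poised genes, where it can spread into wide domains, and H3K27me3 is the repressive mark of Polycomb complexes.

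Values are lengths of genome under the authors' peaks, in base pairs (bp), within 50 kb on either side of a gene end, taking the end with more covered length in each library. Each such window holds 100001 bp. Genes came without a strand, and their ends are called lower and higher by coordinate, not start and end of transcription. Lengths under H3K4me3 peaks summed over the genome ran from 31.6 Mb to 179 Mb per library, and the lists hold no read totals, so depth is unknown. All 30 lists were distinct. The pairs of libraries lay far apart in 2 groups, the H3K4me3 1-cell group (68.9 and 142 Mb) and the H3K27me3 8-cell group (5.65 and 34.2 Mb).

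Around ACTN1 (gene 100513412, chr7:92550132-92644842 in Sscrofa11.1), H3K4me3 peaks covered 9494 and 7931 bp at the GV stage, 3903 and 8780 bp at MII, and 8821 and 15091 bp at the 1-cell stage. The 2-cell libraries had 14962 and 12236 bp, the 4-cell libraries 3556 and 2708 bp, and the 8-cell libraries 3827 and 3542 bp. Morulae then had 48794 and 46741 bp, and blastocysts 69721 and 64203 bp. The morula and blastocyst libraries stood above every earlier library, and the 4-cell and 8-cell libraries, which overlapped each other, were the lowest of all. In blastocysts ACTN1 was number 3 and number 9 among the 19484 genes in covered length, against number 12229 and 13980 in 8-cell embryos.

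The ACTN1 domain lay at the higher-coordinate end of the gene. There the windows held 69721 and 64203 bp in blastocysts, and the windows at the lower end held 17107 and 17948 bp. The widest peak touching the gene measured 1881 and 1948 bp in 8-cell embryos, 12517 and 13021 bp in morulae, and 34590 and 20833 bp in blastocysts. Of the 34590 bp that formed a single peak in the first blastocyst library, 97.1% was also covered in the second, 75.0% and 65.4% in morulae, and 4.95% and 6.50% in 8-cell embryos. The mean covered length in blastocysts was 10.6 times that in MII oocytes.

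EZR (gene 100152815, chr1:8403362-8452750) went from 4219 and 4117 bp in 8-cell embryos to 23981 and 23814 bp in morulae and to 54208 and 56293 bp in blastocysts. Earlier libraries held 8152 and 6745 bp (GV), 3970 and 5324 bp (MII), 4873 and 17685 bp (1-cell), 13988 and 11067 bp (2-cell), and 5047 and 2175 bp (4-cell). Its 3 highest groups, blastocyst, morula and siKDM5BC, did not overlap one another. EZR was the single member whose lower blastocyst library had at least 2 times the covered length of its higher morula library after 1000 bp were added to each. Among all genes, 0.554% passed that rule from morula to blastocyst. The members were picked on blastocyst coverage, which favours such a rise, so this is a description as well.

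Within 5 kb of its lower end, EZR was covered from edge to edge, at 10001 bp, in both morula and both blastocyst libraries, against 1310 and 1907 bp in 8-cell embryos. Its widest peak grew between those stages, from 15138 and 16267 bp to 30231 and 30377 bp. Peaks lay over 29.5% and 26.5% of the gene body in morulae and 84.4% and 88.9% in blastocysts. The higher end of EZR lies 72 bp from SYTL3, which encodes a synaptotagmin-like protein, so marks there cannot be assigned to either gene. Those 5 kb around the higher end held no H3K4me3 peak in any group but the blastocyst, and 3946 and 4878 bp in it.

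KRT8 (gene 100152077, chr5:18172423-18180277) had 4073 and 8121 bp in 8-cell embryos, 47166 and 44709 bp in morulae and 49297 and 49757 bp in blastocysts. Before the 4-cell stage it already held 18446 and 8469 bp (GV), 13244 and 17238 bp (MII), 9152 and 23571 bp (1-cell) and 22996 and 22124 bp (2-cell), and it fell back to 6249 and 3077 bp in 4-cell embryos. KRT18 (gene 100126286, chr5:18217686-18221432) had 5374 and 9846 bp in 8-cell embryos, 53073 and 47211 bp in morulae and 59482 and 61403 bp in blastocysts. Its earlier values were 17068 and 7518 bp (GV), 10214 and 18195 bp (MII), 20486 and 29942 bp (1-cell), 25381 and 28153 bp (2-cell) and 8114 and 3846 bp (4-cell). Their windows overlap, so these are largely the same peaks counted from each gene. At both genes the morula and blastocyst libraries lay above all earlier ones.

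The stretch from the lower end of KRT8 to the higher end of KRT18, 49010 bp long, was also measured as a whole. H3K4me3 peaks covered 5.49% and 11% of it in 8-cell embryos, 73.3% and 66.7% in morulae, and 76.7% and 73.4% in blastocysts. The coverage was broken into several peaks: the widest peak on KRT8 measured 10732 and 10693 bp in blastocysts and that on KRT18 12455 and 9861 bp. A wide peak on KRT8 was not confined to late stages, since the second 1-cell library held 1 of 10418 bp where the first had 971 bp.

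CDH1 (gene 100048953, chr6:18075487-18155986) gained less length from the 8-cell stage to the morula than the cytoskeletal members. It had 7203 and 8587 bp at the GV stage, 4691 and 5485 bp at MII, 7524 and 14114 bp at the 1-cell stage, 15209 and 11612 bp in 2-cell embryos and 2500 and 2137 bp in 4-cell embryos. It then had 5366 and 7781 bp in 8-cell embryos, 19185 and 14819 bp in morulae and 21743 and 23110 bp in blastocysts. Its morula libraries overlapped its 2-cell libraries, and its blastocyst libraries were above all others. CDH3, which encodes P-cadherin, begins 34985 bp above the higher end of CDH1 and falls in its window.

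Peak height near the ends of CDH1 was also compared. Fold enrichment is the authors' ratio of reads in a peak to the peak caller's background. The strongest peak within 5 kb of a CDH1 end had a fold of 3.39 and 3.71 in MII oocytes, 6.27 and 6.45 in 8-cell embryos, 10.5 and 10.9 in morulae, and 12.5 and 10.3 in blastocysts. The gene TANGO6 ends within 5 kb of the lower end of CDH1, so a peak there cannot be assigned to either gene. In the first morula library the strongest peak lay at that lower end. The widest CDH1 peak of the first blastocyst library crosses the higher end. Over that stretch the fold was 5.36 and 6.10 in 8-cell embryos, 7.66 and 6.82 in morulae and 6.25 and 7.18 in blastocysts. By both measures the morula and blastocyst libraries overlapped in fold and were above the 8-cell libraries. How many of all genes showed the same was not counted. In rank of covered length CDH1 stood at 3073 and 2891 of the 19484 genes in blastocysts, well below ACTN1, EZR and the keratins. Within 5 kb of an end it stood at 758 and 814, near the 612 and 726 of KRT8.

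TJP1 (gene 100736682, chr1:144930387-145195857) followed a different course. It had 822 and 832 bp at the GV stage, 1772 and 868 bp at MII, 3709 and 3059 bp at the 1-cell stage, 1711 and 2434 bp in 2-cell embryos and 1110 and 1868 bp in 4-cell embryos. It rose already to 10260 and 8062 bp in 8-cell embryos, reached 22653 and 24637 bp in morulae and stood lower, at 13399 and 14804 bp, in blastocysts. These last 3 groups did not overlap, and the morula libraries were the highest of all 18. TJP1 was the single member to pass the rule of 2 times from the 4-cell to the 8-cell stage, which 7.21% of all genes passed.

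That length at TJP1 came from weak peaks outside the lower end of the gene, not from a wide domain over a gene end. In the first blastocyst library the folds of these TJP1 peaks ran from 2.89 to 3.88. Within 5 kb of an end, TJP1 held 651 and 523 bp in MII oocytes, no peak in 1-cell embryos, 1948 and 2221 bp in morulae and 2229 and 1526 bp in blastocysts. A narrow peak of 1353 bp across its higher end, at chr1:145195206-145196558, was nonetheless stronger in each blastocyst library than any peak within 5 kb of an end of the other members. Its fold was 3.18 and 3.60 in MII oocytes, 4.33 and 6.36 in 8-cell embryos, 10.3 and 10.1 in morulae and 14.6 and 12.7 in blastocysts.

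A further TJP1 peak lay inside the gene, 125 to 131 kb from its lower end, and was the widest on the gene in the first blastocyst library at 5278 bp. Of that stretch 28.3% and 25.9% was covered in 8-cell embryos, 98.4% of it in the first and all of it in the second morula library, and all of it and 82.5% in the blastocyst libraries. The authors' fold for it was 6.49 and 9.58 in 8-cell embryos, 9.65 and 9.52 in morulae, which overlapped the 8-cell libraries, and 11.8 and 12.8 in blastocysts. The maps of peaks by library show the wide domains over ACTN1, EZR and the keratin pair beside the narrow peaks of TJP1. The widest peak on CDH1, 13023 and 9850 bp in blastocysts, overlapped those on KRT8 and KRT18 in width.

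**Figure D1:**
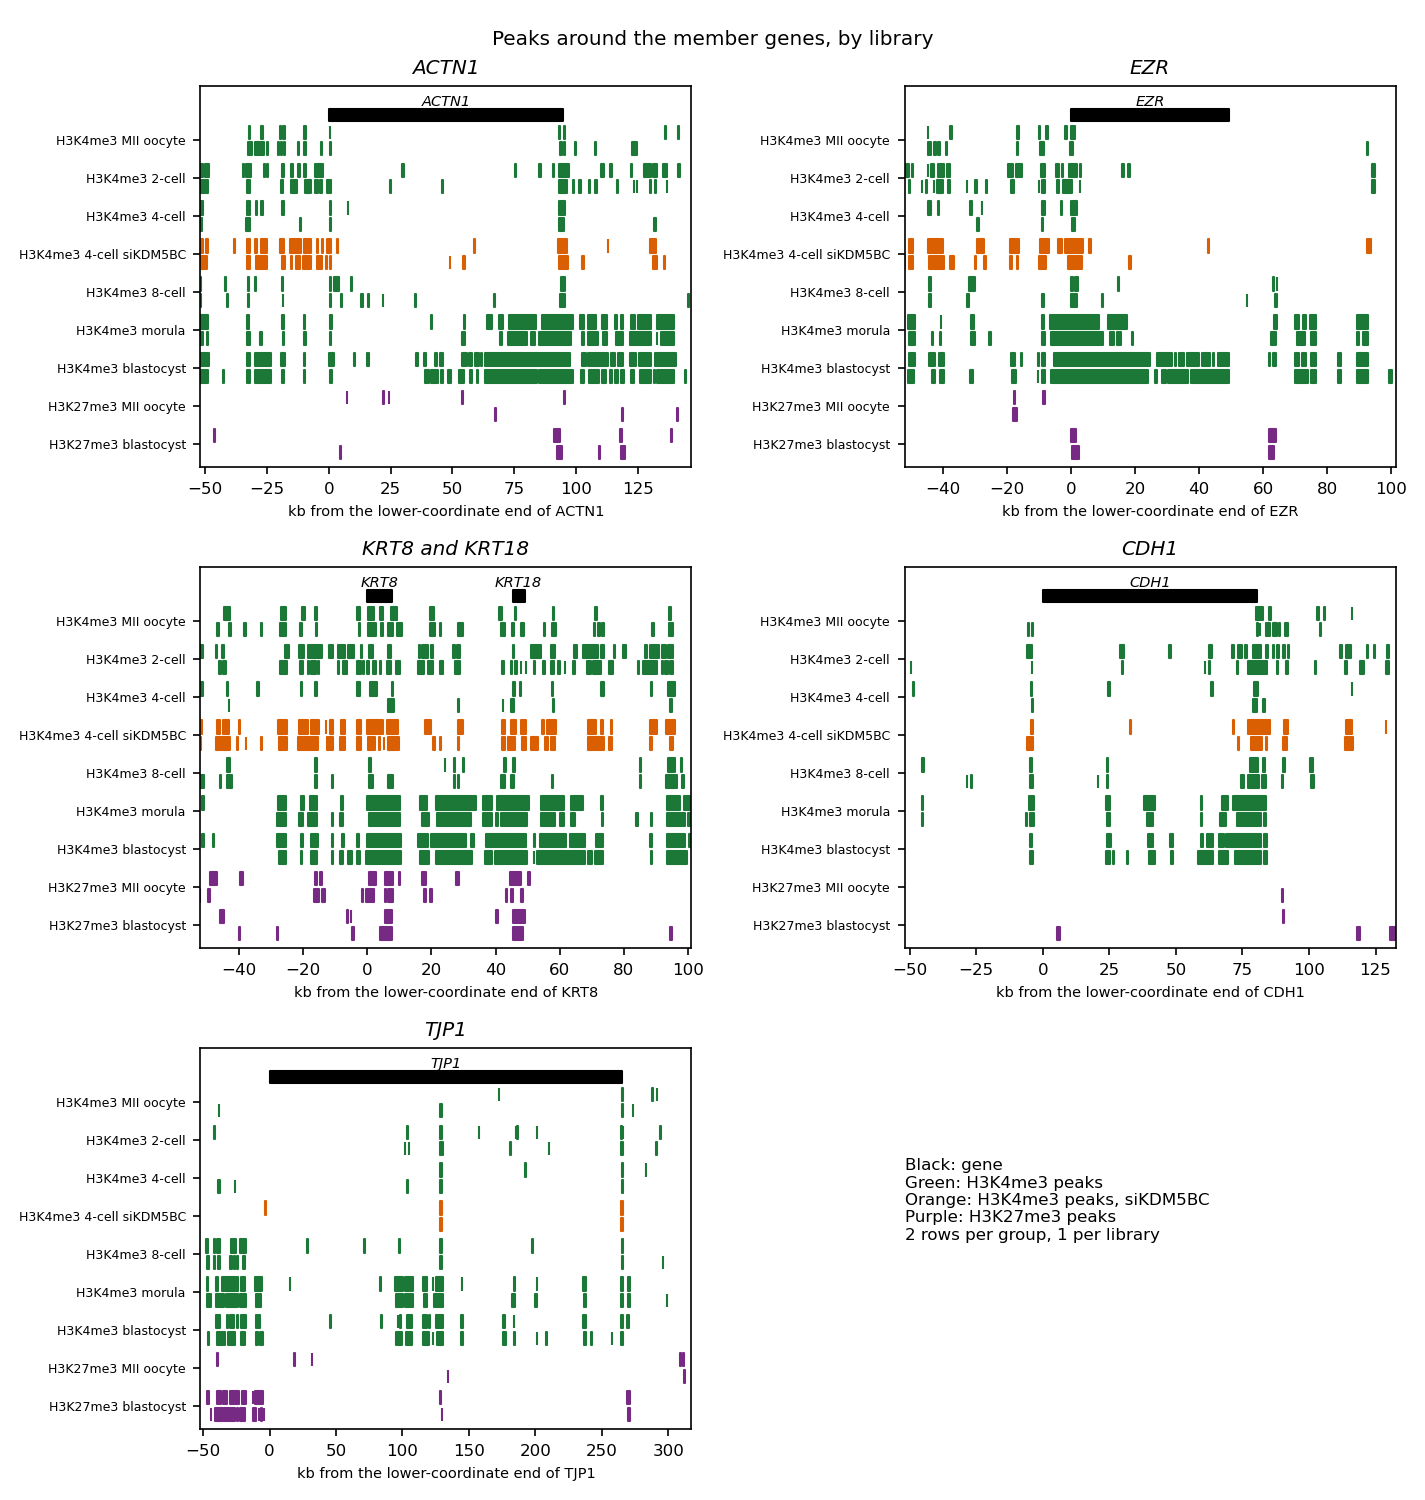
Peaks around each gene in every library of the selected groups. The x axis is the distance in kb from the lower-coordinate end of the gene, each line of bars is a library, bars are peaks, and the black bar on top is the gene. KRT8 and KRT18 share a panel. The domains of ACTN1, EZR and the keratin pair are present in morula and blastocyst libraries and sparse in 8-cell libraries, whereas TJP1 keeps narrow peaks. In blastocysts the widest peak on CDH1 is about as wide as those on the keratin genes.

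**Figure D2:**
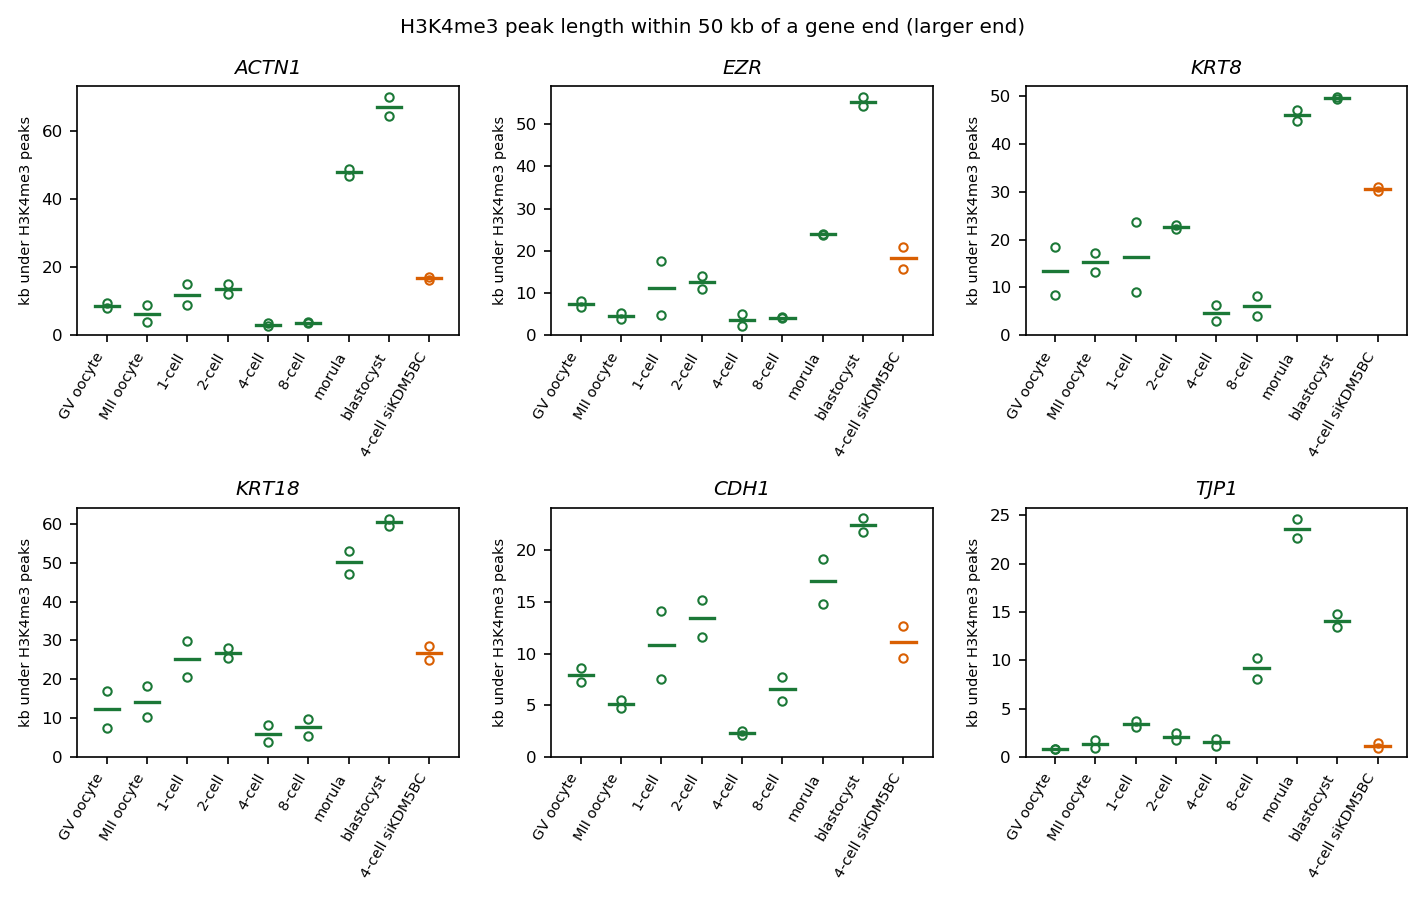
H3K4me3 peak length within 50 kb of a gene end, in kb, by group. Circles are the 2 libraries of a group and bars are their mean, and the y axes differ between panels. ACTN1, EZR, KRT8, KRT18 and CDH1 are highest in blastocysts and TJP1 in morulae.

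By the rule of 2 times, all 6 members were higher in blastocysts than in MII oocytes, where 32.3% of all genes were, which restates the choice of the members. With only stronger peaks counted (the peak caller's −log10 q of 3 or more), all 6 again passed, as did 87.6% of all genes. Peaks that strong covered 0.234 and 0.9995 Mb in the MII libraries and 83.1 and 89.0 Mb in the blastocyst libraries. All 6 were likewise higher in blastocysts than in GV oocytes, against 16.6% of all genes. From MII oocytes to blastocysts within 5 kb of a gene end, ACTN1, EZR and KRT18 passed it and KRT8, CDH1 and TJP1 did not, against 20.4% of all genes. From the 2-cell to the 4-cell stage ACTN1, KRT8, KRT18 and CDH1 passed the rule downwards, against 21.3% of all genes. From MII oocytes to 2-cell embryos none of the 6 passed it upwards, against 15.5%.

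The strongest peak within 5 kb of an end gave an order of stages that did not always follow the length. At EZR the fold was 9.75 and 5.65 in 8-cell embryos, 7.26 and 5.78 in morulae and 6.15 and 6.41 in blastocysts, so the 3 stages overlapped in fold while the length rose at each. At KRT8 the fold was 3.41 and 3.76 in 8-cell embryos and 7.86 and 5.79 in morulae, and at KRT18 it was 3.12 and 3.74 against 6.98 and 6.07. These keratin groups did not overlap. The share of all genes whose folds separate in this way was not counted, so nothing particular to the keratins is read from it. Over the genome, length under peaks with −log10 q of 3 or more was 23.0 and 28.4 Mb in 8-cell embryos and 89.4 and 84.6 Mb in morulae. At ACTN1 the strongest 8-cell peak, with a fold of 6.17 and 7.33, lay at the lower end. At the higher end, where the domain lay, the fold was 4.74 and 6.24 in 8-cell embryos. There it was 9.82 and 7.71 in morulae, close to the 7.20 and 10.8 of blastocysts.

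**Figure D3:**
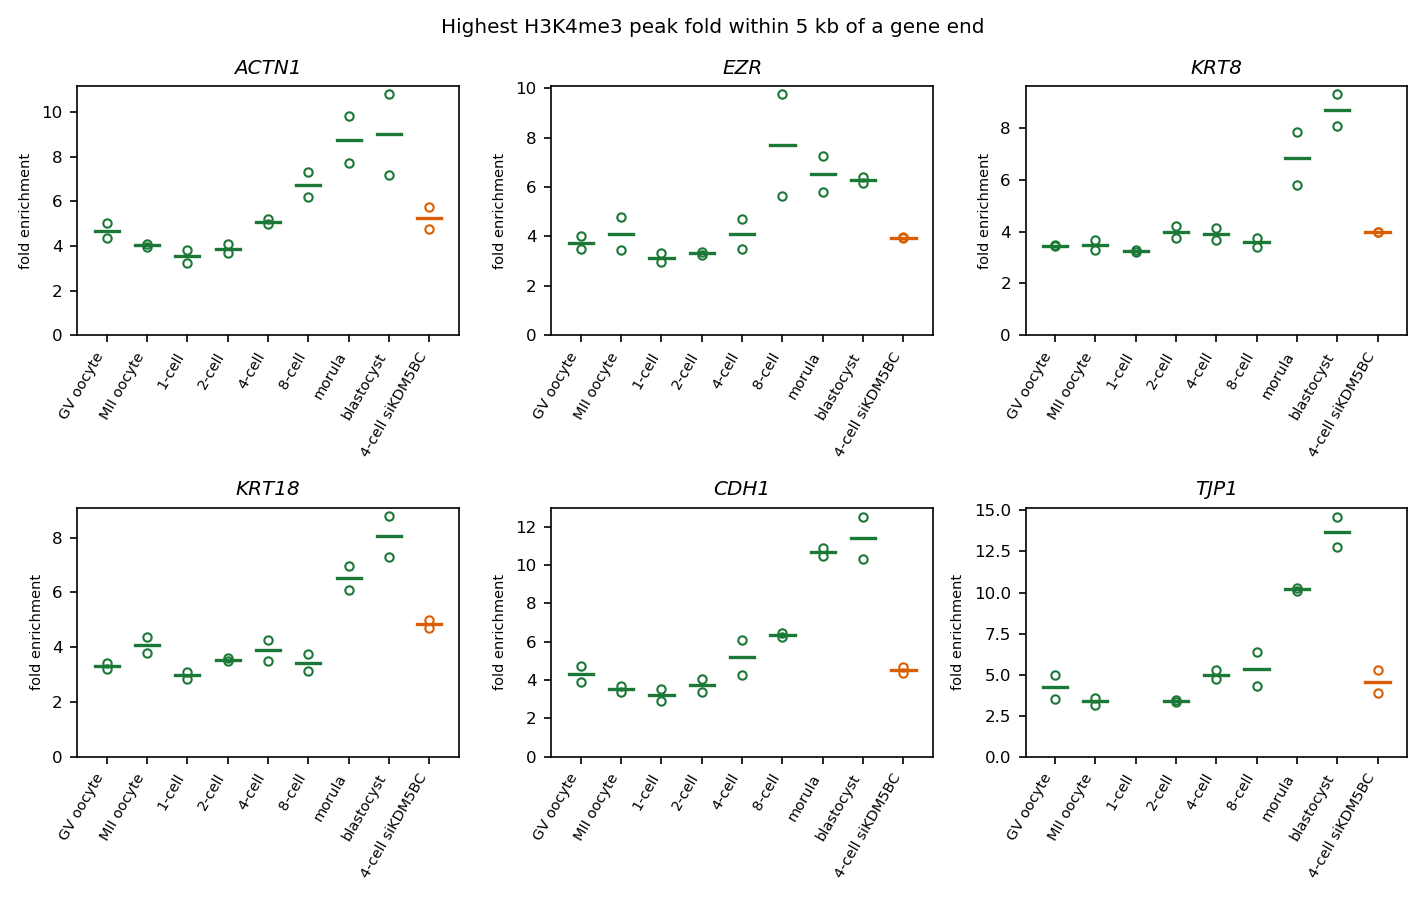
Highest fold enrichment of any H3K4me3 peak within 5 kb of a gene end, by group, as the authors' peak caller gave it. Circles are libraries, bars are means of 2, y axes differ between panels, and no circle is drawn where no peak was present (TJP1, 1-cell). By the mean of the 2 libraries the strongest blastocyst peaks lie near the ends of TJP1 and CDH1. The strongest near CDH1 is not the widest peak on that gene, and TANGO6 ends within 5 kb of the lower end of CDH1. EZR overlaps from the 8-cell stage to the blastocyst.

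The change from the 8-cell stage to the morula was tested across all genes with limma on log2(covered bp + 1000), fitted to the 18 H3K4me3 libraries, with Benjamini-Hochberg adjustment over 19344 genes and a threshold of 0.05. Differences are in log2 units of covered bp plus 1000, which understates changes of short lengths. All 6 members rose, where 24.5% of all genes tested rose and 1.08% fell. The members were chosen on blastocyst levels, which lie close to the morula levels, so this count is not independent of the choice.

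ACTN1 rose most, by 3.38 (SE 0.35, limma adjusted p = 5.59e-05), followed by KRT8 at 2.79 (SE 0.44, limma adjusted p = 0.000571) and KRT18 at 2.62 (SE 0.42, limma adjusted p = 0.000599). EZR rose by 2.27 (SE 0.44, limma adjusted p = 0.00192). The junction members rose less, TJP1 by 1.29 (SE 0.31, limma adjusted p = 0.00808) and CDH1 by 1.26 (SE 0.34, limma adjusted p = 0.0130). The median over all genes was 0.63. In all 6 genes both morula libraries were above both 8-cell libraries, which held for 70.2% of all genes.

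Total peak length rose over the same step, from 66.0 and 81.5 Mb to 126 and 141 Mb. With lengths scaled to each library's total, ACTN1 (2.62), KRT8 (2.00), KRT18 (1.82) and EZR (1.5) still rose, and CDH1 (0.48, limma adjusted p = 0.228) and TJP1 (0.48, limma adjusted p = 0.455) no longer passed. On that scale 1663 genes were higher and 2471 lower, against 4732 and 209 unscaled, and the median over all genes moved from 0.63 to -0.10. Without the second morula library alone, 4 members passed, CDH1 (limma adjusted p = 0.0547) and TJP1 (limma adjusted p = 0.0781) being lost, and the share of all genes that rose was 6.8%. Markers of cumulus and granulosa cells, of which 6 of 8 matched, had summed lengths of 27826 and 40583 bp in 8-cell libraries and 51533 and 61187 bp in morula libraries. None of the 6 markers lacked a peak there, and their part in the result was not tested.

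Genes related to the members were described from 5 lists of 80 genes in all, set beside all genes without a test of the lists. The mesenchymal list is a counterpart, not a list of genes that work with the members, and shares over the 80 genes include it. Of the 80 genes, 30 rose and none fell from the 8-cell stage to the morula, a share of 37.5% beside 24.5% of all genes. By list, 9 of 20 tight junction and polarity genes rose (median difference 1.01), 9 of 22 cortical actin genes (0.90), 5 of 12 adherens junction genes (0.80), 6 of 16 keratin and desmosome genes (0.79) and 1 of 10 mesenchymal genes (0.73). OCLN, the tight junction protein occludin, went from 3553 and 4073 bp to 30390 and 32370 bp (2.75, SE 0.38, limma adjusted p = 0.000208). ACTN2, the muscle alpha-actinin, went from 2934 and 1290 bp to 16314 and 16333 bp (2.53, SE 0.39, limma adjusted p = 0.000442). CDH3 of the adherens list shares its window with CDH1, and no gene of the lists lacked a peak in both blastocyst libraries.

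Over the 18 H3K4me3 libraries, ACTN1, EZR, KRT8, KRT18 and CDH1 varied together, with Pearson's r between 0.873 (KRT8 and CDH1) and 0.961 (KRT8 and KRT18, which share windows), and TJP1 had r between 0.391 and 0.584 with them. These coefficients are descriptions, since all genes of a library share its total peak length. The pair of genes most like each member, more than 200 kb away, were PRMT7 (r = 0.974) and BLM (0.973) for ACTN1, FURIN (0.977) and STAP2 (0.974) for EZR, and ITSN1 (0.975) and CYBRD1 (0.970) for KRT8. They were SLC1A3 (0.980) and ITSN1 (0.972) for KRT18, BCO1 (0.960) and TXNDC2 (0.952) for CDH1, and LOC100513070 (0.966) and LOC100516898 (0.959) for TJP1.

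The siKDM5BC libraries were compared with the 4-cell libraries in the same limma fit, to see whether the members gained H3K4me3 when the demethylases were targeted. ACTN1, EZR, KRT8, KRT18 and CDH1 rose and TJP1 did not pass, which is 5 of 6 beside 65.1% of all genes. A share so near the background is not a result about the members. Total peak length was 179 and 164 Mb in siKDM5BC and 56.4 and 31.6 Mb in 4-cell libraries.

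KRT8 went from 6249 and 3077 bp to 30993 and 30097 bp (2.54, SE 0.44, limma adjusted p = 0.000402), and KRT18 from 8114 and 3846 bp to 28443 and 24880 bp (2.05, SE 0.42, limma adjusted p = 0.00101). EZR rose from 5047 and 2175 bp to 20822 and 15765 bp (2.13, SE 0.44, limma adjusted p = 0.00105), and ACTN1 from 3556 and 2708 bp to 17198 and 16242 bp (2.11, SE 0.35, limma adjusted p = 0.000316). CDH1 went from 2500 and 2137 bp to 12697 and 9609 bp (1.86, SE 0.34, limma adjusted p = 0.000473). In each of these 5 genes both siKDM5BC libraries were above both 4-cell libraries, as in 84.6% of all genes, and the median difference over all genes was 1.18.

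TJP1 had 1110 and 1868 bp in 4-cell and 875 and 1385 bp in siKDM5BC libraries, which overlapped (-0.22, SE 0.31, limma adjusted p = 0.547). Its difference was among the lowest 1.56% of all genes tested, and its sign turned within 5 kb (0.226), within 25 kb (0.127) and with peaks of fold 3.5 or more (0.226), none of which passed. It was 0.0032 without the second 4-cell library. With lengths scaled to the library totals, the difference of TJP1 was -1.47 (limma adjusted p = 0.0206), and of the others KRT8 alone passed upwards (0.73, limma adjusted p = 0.0412). That scaling left 1116 genes higher and 5220 lower, against 12592 and 39 unscaled, with a median of -0.40. Within 5 kb of a gene end KRT18 and CDH1 alone passed, beside 31.0% of all genes. Without the second 4-cell library the same 5 members passed and the background was 26.4%.

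The siKDM5BC peaks lay partly where blastocyst peaks lie. Within 50 kb of ACTN1 and over its body, 14616 bp were covered in both siKDM5BC libraries and 70038 bp in both blastocyst libraries, with 8394 bp in common (57.4% of the former, 12% of the latter). Over all chromosomes the common length was 28.8% of the siKDM5BC length and 38.1% of the blastocyst length. The members were chosen for long blastocyst coverage, which by itself raises the share of siKDM5BC bases under blastocyst peaks, so nothing particular to them is read from these shares. At KRT18 the shares were 78.9% and 23.9%, at KRT8 65.8% and 35.1%, at EZR 61.5% and 13.6%, and at CDH1 54.7% and 22.4%. At TJP1 all of the 2635 siKDM5BC bp lay under blastocyst peaks, 9.6% of the blastocyst length. The place differed at ACTN1, where siKDM5BC libraries had 17198 and 16242 bp at the lower end and 6185 and 6859 bp at the higher end, the reverse of blastocysts. The stretch under the widest blastocyst peak of ACTN1 was covered over 9.68% and 10.4% in siKDM5BC libraries, and that of KRT8 over 78.5% and 58.5%.

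**Figure D4:**
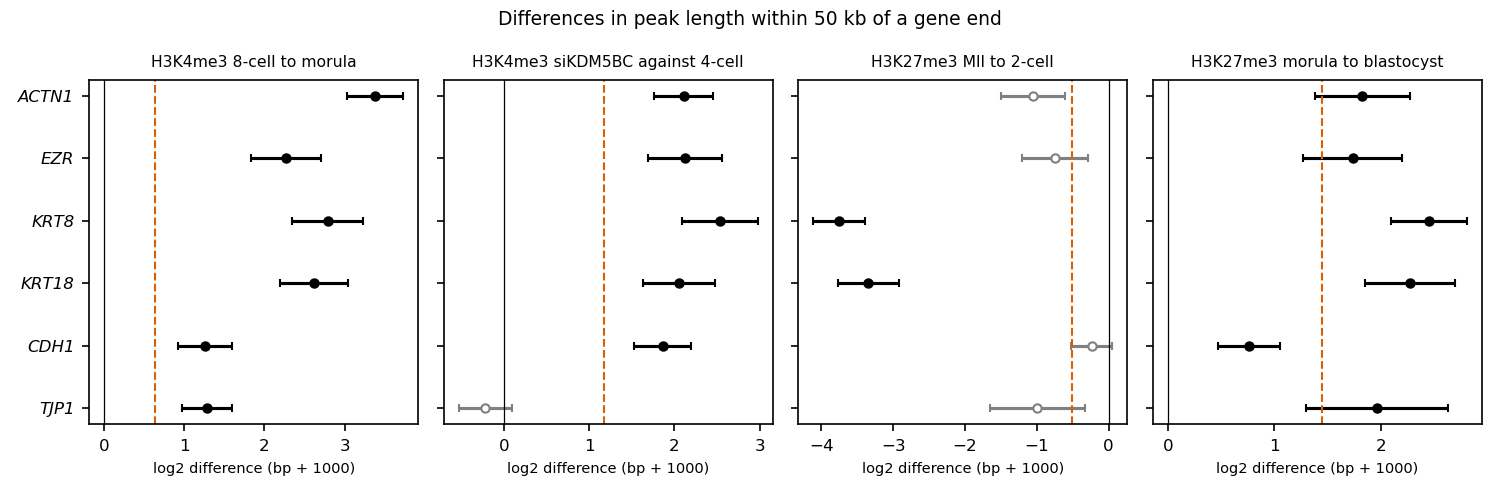
Log2 difference in peak length (covered bp plus 1000) of each member in the 4 tested comparisons. Points are limma estimates, lines are standard errors, filled points passed the threshold and open grey points did not, and the dashed line is the median of all genes tested. ACTN1, EZR, KRT8 and KRT18 stand well above the median from 8-cell to morula, and TJP1 stands below it in siKDM5BC.

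Of the same 80 related genes, 65 rose in siKDM5BC and none fell (81.2% beside 65.1% of all genes). By list, 9 of 12 adherens junction genes rose (median 1.54), 12 of 16 keratin and desmosome genes (1.52), 8 of 10 mesenchymal genes (1.47), 18 of 20 tight junction genes (1.45) and 18 of 22 cortical actin genes (1.39). PKP1, the desmosomal plakophilin, went from 6016 and 3954 bp to 53496 and 53321 bp, a rise of 3.21 (SE 0.49), and had 10876 and 12935 bp in blastocysts. KRT19, a keratin of simple epithelia, went from 11658 and 2634 bp to 59377 and 59366 bp, a rise of 3.15 (SE 0.49), and had 11713 and 11751 bp in blastocysts. SNAI2, a repressor of CDH1, went from 9139 and 2168 bp to 49615 and 44955 bp, a rise of 3.09 (SE 0.48), and had 2817 and 4961 bp in blastocysts. These 3 genes were named for their rise in siKDM5BC.

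H3K27me3 was sparse around the members except at the keratin pair and TJP1. At KRT8 it covered 14433 and 10818 bp in MII oocytes, nothing in either 2-cell library, 1591 and 1705 bp in 4-cell embryos, 0 and 851 bp in 8-cell embryos, 1302 and 328 bp in morulae and 8515 and 8565 bp in blastocysts. KRT18 had 10614 and 7868 bp in MII oocytes, nothing in 2-cell embryos and 6608 and 8328 bp in blastocysts, from the same peaks in part. At KRT18 the MII and blastocyst libraries overlapped, and at KRT8 both MII libraries were higher.

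The fall from MII oocytes to 2-cell embryos was tested with limma over the 12 H3K27me3 libraries and 18861 genes. KRT8 fell by 3.76 (SE 0.36, limma adjusted p = 3.45e-05) and KRT18 fell by 3.34 (SE 0.42, limma adjusted p = 0.000177), 2 of 6 members and a single place in the genome, beside 32.4% of all genes. With the 2-cell libraries at 0, these fitted values depend on the added 1000 bp. ACTN1 (-1.05), TJP1 (-0.99), EZR (-0.74) and CDH1 (-0.24) did not pass (limma adjusted p = 0.111, 0.367, 0.320 and 0.720), and the median over all genes was -0.51. Summed H3K27me3 length was 71.4 and 61.9 Mb in MII oocytes and 2.01 and 1.28 Mb in 2-cell embryos. Scaled to these totals, KRT8 (-2.98) and KRT18 (-2.60) still passed, with 3071 genes lower and 540 higher against 6104 and 2 unscaled, and the median moved to -0.19. With peaks of −log10 q of 3 or more alone, neither passed.

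From morula to blastocyst all 6 members passed upwards, beside 67.4% of all genes, so the count is near the background. KRT8 rose by 2.45 (SE 0.36, limma adjusted p = 0.000535) and KRT18 by 2.27 (SE 0.42, limma adjusted p = 0.00171). TJP1 went from 5010 and 4651 bp to 21410 and 22120 bp (1.97, SE 0.67, limma adjusted p = 0.0262), the longest H3K27me3 around any member. These lengths are from its lower end, and its higher end held 1313 and 1601 bp in blastocysts. Only 0.108% and 0.124% of the TJP1 gene body was covered there, so the mark lay almost wholly outside the gene. ACTN1 went from 281 and 501 bp to 3750 and 4078 bp (1.82, SE 0.44, limma adjusted p = 0.00617), and EZR from 942 and 0 bp to 3339 and 3957 bp (1.73, SE 0.46, limma adjusted p = 0.00968). CDH1, with no peak in either morula library, had 337 and 1141 bp in blastocysts and rose by 0.76, below the median of 1.45. Summed length went from 10.8 and 13.6 Mb to 84.7 and 109 Mb, and after scaling to it no member passed, TJP1 changed sign (-0.75), and 4.77% of genes were higher and 2.23% lower, against 12716 genes higher and 0 lower unscaled.

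**Figure D5:**
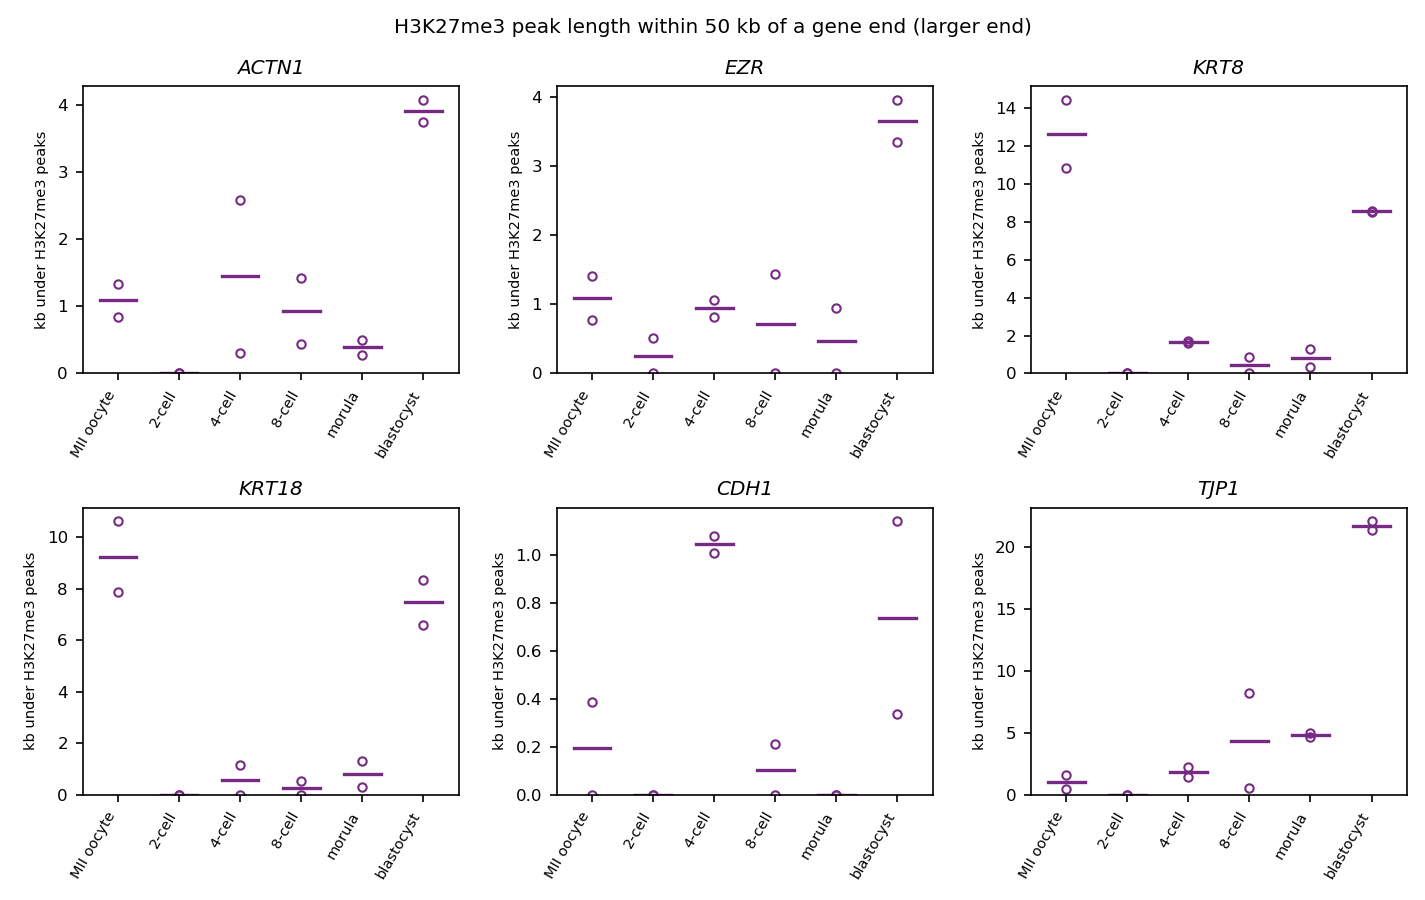
H3K27me3 peak length within 50 kb of a gene end, in kb, by group. Circles are the 2 libraries of a group and bars are their mean, and the y axes differ between panels. The keratin pair is marked in MII oocytes and blastocysts and empty in 2-cell embryos, and TJP1 is highest in blastocysts.

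Peaks of both marks overlapped at some members in blastocysts. The marks were mapped in separate libraries, and a blastocyst library pools cell types. Bases under both peaks therefore need not carry both marks in the same cell. Bases under both marks in both libraries of each numbered 5527 at the keratin pair, which is 12.5% of the H3K4me3 length around KRT8 and 9.87% around KRT18. They numbered 6817 around TJP1 (24.9%), 1871 at ACTN1 (2.67%), 1302 at EZR (2.33%) and 0 at CDH1, beside 13.3% over all chromosomes. Those counted for TJP1 lay almost wholly outside the gene, as its H3K27me3 did. Peaks of both marks overlapped at the keratin pair in MII oocytes as well, over 34.4% of the H3K4me3 length at KRT8 and 35.7% at KRT18. Over all chromosomes the share was 26.7%, and the other 4 members had no such bases in MII oocytes. At the 8-cell stage no member had a base under both marks, and over all chromosomes 4.42% of the H3K4me3 length had both.

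Among the 80 related genes, of which 79 had H3K27me3 peaks enough to test, 34 fell from MII oocytes to 2-cell embryos (43.0% beside 32.4%) and 56 rose from morula to blastocyst (70.9% beside 67.4%). In the first step 12 of 16 keratin and desmosome genes fell (median -1.84) and 6 of 9 mesenchymal genes (-1.36), and in the adherens junction, tight junction and cortical actin lists 5 of 12 (-0.59), 5 of 20 (-0.43) and 6 of 22 (-0.48). In the second step 15 of 16 keratin and desmosome genes rose (1.95), 8 of 9 mesenchymal genes (2.14), 8 of 12 adherens junction genes (1.45), 14 of 20 tight junction genes (1.35) and 11 of 22 cortical actin genes (1.33).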

How the data were processed

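The authors deposited a broad peak list per library. Per the submitters' processing notes, reads were aligned with Bowtie2 2.4.1 to susScr11 (Sscrofa11.1) and processed with MACS2. No source used here gave the MACS2 version, an input control, the threshold or filters on reads. The deposited columns used were peak positions, the authors' fold enrichment ratio and their −log10 p and −log10 q; the deposited display score was not used. Gene positions came from RefSeq for the same assembly, and peaks on other sequences than chromosomes 1 to 18 and X were left out.

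Covered length was measured within 50 kb and 5 kb of gene ends. limma 3.58.1 (R 4.3.3) was fitted to log2(bp + 1000) with group as the only term, over genes with a peak in at least 2 libraries of the mark, and called at a Benjamini-Hochberg adjusted p under 0.05; it was tested on simulated data. An exact permutation test of 2 libraries against 2 cannot go below p = 0.333. The members and gene lists were chosen with earlier results of these data known. Named genes were the 6 members, the 3 called list genes with the largest rise or fall in each H3K4me3 comparison, and the 2 most correlated genes per member over 200 kb away. A gene that this rule names is not reported here. Alternatives were peak strength, window, joining of peaks, both ends together, added length, filter, scaling to library totals, replicate block and leaving out libraries. Lists of markers gave the following counts risen from 8-cell to morula and in siKDM5BC: cumulus and granulosa 2 and 3 of 6, sperm 1 and 3 of 4, trophectoderm 2 and 5 of 5, inner cell mass 0 and 4 of 5, oocyte 1 and 3 of 4.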

Additional observations from a re-analysis of the deposited data

How the results depend on the processing

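The labels give the same replicate numbers in every group, and little shared deviation was seen between same-numbered libraries. That cannot show whether they were collected or processed together. Same-numbered libraries deviated together (r over 0.1) in 4 of 36 pairs of H3K4me3 groups and in 0 of 15 pairs of H3K27me3 groups. With a replicate block the counts of members called were 6 (8-cell to morula), 5 (siKDM5BC), 2 (H3K27me3, MII to 2-cell) and 6 (H3K27me3, morula to blastocyst), the same numbers as without it, and the share of all genes called moved from 24.5% to 22.4%, 65.1% to 63.2%, 32.4% to 32.7% and 67.4% to 68.4%.

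From 8-cell to morula, ACTN1, EZR, KRT8 and KRT18 passed under every alternative run. CDH1 or TJP1 was lost in several, and 4 members passed with peaks of fold 3.5 or more (11% of all genes), with peaks under 3 kb apart joined (16.0%) and with scaling (8.6%). Leaving out each library in turn gave 4 to 5 members, and the share of all genes that rose was 8.04% and 12.7% without the first and the second 8-cell library, and 10% and 6.8% without the first and the second morula library. Within 5 kb 2367 genes rose, with +100 bp 2799, and with −log10 q of 3 or more 7302, against 4732.

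In siKDM5BC, 3 members passed with −log10 q of 3 or more (28.3% of all genes), 1 with fold 3.5 or more (4.79%), 2 within 5 kb (31.0%) and 1 with scaling (5.77%). Leaving out each library gave 5 to 5 members, with 26.4% of all genes without the second 4-cell library and 39.5% without the first siKDM5BC library. The difference of TJP1, -0.22, became 0.226 with fold 3.5 or more, 0.226 within 5 kb and 0.127 within 25 kb, and ranged from -0.44 to 0.0032 with a 4-cell or siKDM5BC library left out, the highest value being that without the second 4-cell library. It passed the threshold in none of these, and passed with scaling.

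For H3K27me3 from MII to 2-cell, 0 members passed with −log10 q of 3 or more, where 3 members could be tested, beside 24.4% of the genes tested. With +100 bp 4 passed (ACTN1, KRT8, KRT18 and TJP1), beside 38.2%. The difference of EZR changed sign with scaling (1.31). With the 2 H3K27me3 8-cell libraries left out of the fit, chosen after seeing the data, TJP1 passed too, beside 35.7% of all genes. For H3K27me3 from morula to blastocyst, 0 members passed with −log10 q of 3 or more (39.2% of the genes tested) and 2 with fold 3.5 or more (27.5%). With peaks joined 3 passed (61.7%), with scaling 0 (4.77%) and with +100 bp 3 (51.5%). TJP1 was -0.75 with scaling. Leaving out each library gave 3 to 5 members: 4 and 3 without the first and the second morula library, 5 and 3 without the first and the second blastocyst library. By the rule of 2 times from MII oocytes to blastocysts, 3 members passed within 5 kb (20.4% of all genes) and 5 with scaling (22.0%). All 6 passed with −log10 q of 3 or more (87.6%) and with fold 3.5 or more (58.4%). Without the second MII library the background was 49.9%. The cause of these changes was not tested. Leaving the 2 1-cell libraries out of the H3K4me3 fit, also chosen after seeing the data, changed no count of members. Depth limits these values in that a stage with shorter total peak length may hold marked regions that were not called.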
